A study of Mus musculus with 391 samples.

Results

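The 43 genes described here encode proteins of the lysosome: 9 membrane proteins, 9 glycosidases and lysozyme, 7 proteins of lipid and protein breakdown, 2 other luminal proteins, 1 transcription factor, and 15 subunits or accessory proteins of the vacuolar proton pump. They were chosen by name from a list, not by their values, though the list was made with earlier results of these data known. Cathepsins are not in the list. All 43 were found among the 56941 genes of the deposited count table, and all 43 had reads in both classes of cells and passed 1 CPM (the counts-per-million scale) in at least one of them.

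Lysosomes are acidic compartments in which glycans, lipids and proteins taken up or recycled by a cell are broken down by soluble hydrolases. The vacuolar proton pump acidifies them with a membrane sector, V0, that carries protons and a cytosolic sector, V1, that hydrolyses ATP, and transcription factors of the MiT/TFE family, among them Tfeb, can raise many lysosomal genes together. Microglia and other brain macrophages clear debris through this system, and loss of single members causes lysosomal storage diseases of the brain.

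The cells came from brains of adult mice, from which vascular fragments were prepared and digested to single cells, sorted into plates and read by Smart-seq2, a full-length RNA sequencing protocol. By the labels 280 cells are microglia (coded MG in the deposited cell table) and 111 are endothelial (coded CP-EC), and the labels give neither strain, genotype, sex, treatment nor animal. Each class therefore counts as 1 sample, no test between the classes was possible, and each difference stated here has no replicate check. Levels are CPM of gene reads, pooled over the cells of a class; they are shares of a class's reads, not amounts of RNA per cell.

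The table held 68869241 gene reads, with a median of 146506 (39876 to 504875) in a microglia-class cell and 174345 (83954 to 602175) in an endothelial cell. Plate A held 133 microglia-class and 7 endothelial cells and plate B 147 and 10, while plates C and D held 50 and 44 endothelial cells and no cell of the microglia class. Intervals in parentheses after levels and ratios are exact 95% intervals; the reads carry no molecular identifiers, so they cover counting error only and are narrower than the spread between cells. Summed over 10 general macrophage markers, the microglia class stood at 22005 CPM (cells from 2155 to 62033) and the endothelial class at 44.5 CPM (cells from 0 to 2224). For 10 endothelial markers the sums were 180.1 CPM (cells from 5.09 to 2175) and 25894 CPM (cells from 9586 to 41394). No marker of either list was at 0 in either class. The microglia class was not uniform. Only in 1 of its 4 clusters did all 10 listed microglia markers have reads in 50% of cells or more, described further on, so it is called the microglia class throughout.

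The classes were compared to see how far the lysosomal genes separate the microglia class from the endothelial cells. Since 94 of the 111 endothelial cells lie on plates C and D, class and plate cannot be fully told apart in the pooled ratios, and the values within plates A and B are given beside them. Together the 43 genes took 29648 CPM in the microglia class and 7799 CPM in the endothelial class. Of the 43, 14 (32.6%) stood higher in microglia-class cells by 4-fold or more on the log2(CPM + 1) scale, 0 stood that far higher in endothelial cells, and 29 lay between, 15 of them within 2-fold. Among all 14989 genes at 1 CPM or more in either class, 19.9% passed that size toward the microglia class and 11.7% toward the endothelial class; among the 8988 genes at least as high as the lowest listed gene the shares were 16.9% and 13.3%. The median log2 ratio of the microglia class over the endothelial class was 1.43 for the 43 genes, 0.36 for all genes and 0.08 for the genes at least as high. Of the 43 pooled ratios, 42 were above 0 and 38 were above the median of all genes. Only Smpd1 was below 0, at -0.14. On plate A 5 of the 43 ratios were below 0, and on plate B 3 were.

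The 14 genes were the membrane proteins Laptm5, Cd68, Ctns and Npc1, the luminal proteins Lyz2, Creg1, Gusb, Man2b1, Hexa, Npc2 and Ppt1, the transcription factor Tfeb, and the pump subunits Atp6v1c1 and Atp6v0a1. Within plate A, 22 of the 43 genes (51.2%) passed 4-fold toward the microglia class against 46.5% of all genes and 44.5% of genes at least as high as the lowest member. Within plate B, 18 (41.9%) did, against 48.4% and 44.5%. The share of lysosomal genes past 4-fold was thus near that of all genes within each shared plate, where the endothelial side rests on 7 and 10 cells. The median log2 ratio of the 43 genes was 2.25 on plate A and 1.56 on plate B, against 1.73 and 1.87 for all genes and 0.99 and 1.06 for the genes at least as high. Of the 14 genes, 10 passed 4-fold on both plates as well as pooled. The other 4 missed it on one plate: Ctns had a log2 ratio of 0.13 on plate B, and Gusb 1.86, Ppt1 1.87 and Atp6v1c1 1.95 on plate A.

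**Figure D1:**
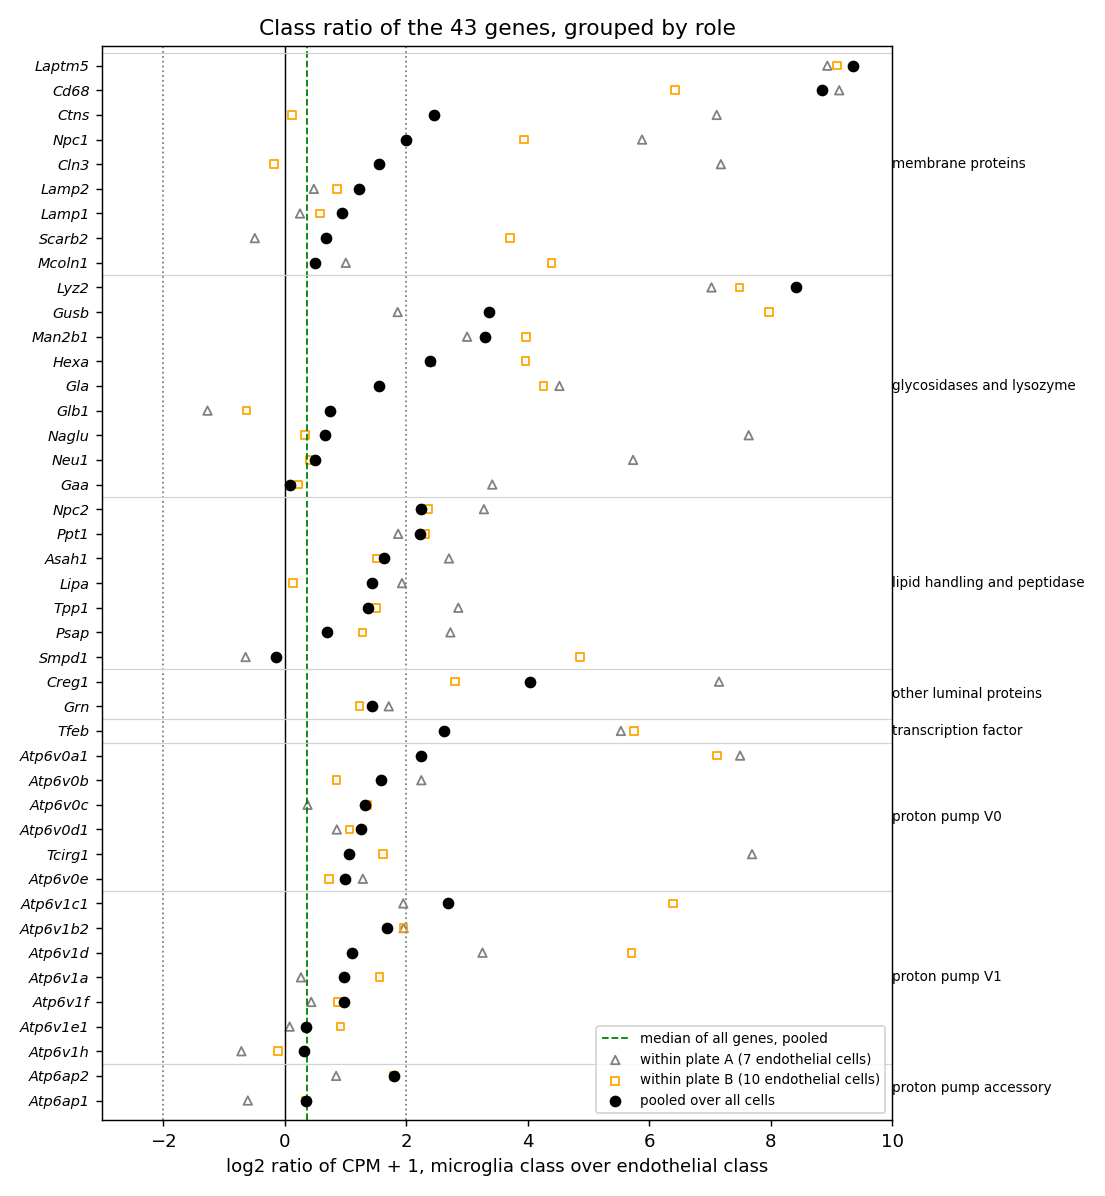
Log2 ratio of CPM + 1, microglia class over endothelial class, for each of the 43 genes by role, pooled over all cells (filled circles) and within plates A (triangles, 7 endothelial cells) and B (squares, 10 endothelial cells), with dotted lines at 4-fold either way and a dashed line at the median of all genes, 0.36. Laptm5, Cd68 and Lyz2 lie beyond 8 on the pooled log2 scale, most pump subunits lie between 0 and 2, and single genes such as Ctns, Cln3 and Tcirg1 shift by many log2 units between the plates.

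Promoters of many lysosomal genes carry an E-box that MiT/TFE factors bind, and the listed genes were searched for it in RefSeq windows of GRCm38.p6 that run from 250 bases before to 50 bases after each start. Of the 43 genes, 38 had a window, and Npc1, Asah1, Atp6v1b2, Atp6v1c1 and Atp6v1h had none. The letters TCACGTG, on either strand, were present in 11 of the 38 (28.9%) and in 4.29% of 27025 genes with windows. The shorter CACGTG, which every TCACGTG contains, was in the same count of 11 against 8.09%, and GAGGAAG, which holds the core letters bound by the macrophage factor PU.1, was in 8 (21.1%) against 15.4%. By window, TCACGTG was in 23.4% of 47 member windows and in 3.77% of all 32851. The 11 genes were Lamp1, Mcoln1, Cln3, Glb1, Gla, Gaa, Naglu, Atp6v0b, Atp6v0d1, Atp6v0e and Atp6v1a. Stretches of 4 of these promoters are shown because they let the shared letters be seen in a membrane protein, 2 glycosidases and a pump subunit; each is written 5′ to 3′ along the gene's strand (Atp6v1a on the minus strand, the others on the plus strand), and capitals mark TCACGTG or its reverse complement.
Lamp1, chr8:13159059-13159160: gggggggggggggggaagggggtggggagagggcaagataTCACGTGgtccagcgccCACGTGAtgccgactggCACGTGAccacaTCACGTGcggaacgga
Glb1, chr9:114400989-114401075: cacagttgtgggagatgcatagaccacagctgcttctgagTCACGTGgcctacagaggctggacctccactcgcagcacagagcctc
Gaa, chr11:119267782-119267868: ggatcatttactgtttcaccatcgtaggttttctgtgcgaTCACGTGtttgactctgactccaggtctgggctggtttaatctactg
Atp6v1a, chr16:44139344-44139431: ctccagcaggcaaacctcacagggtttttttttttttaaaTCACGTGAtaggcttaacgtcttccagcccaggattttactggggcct

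Lamp1 held 4 matches between 62 and 16 bases before its start. Glb1 and Gaa held 1 each, 49 and 141 bases before theirs, and Atp6v1a 2 that overlap in a palindrome, 132 and 131 bases before its start. None of the 11 genes with these letters was among the 14 past 4-fold; their log2 ratios ran from 0.09 to 1.58 with a median of 0.98. Of the 27 genes with a window and without the letters, 12 stood at least 4-fold higher, with a median of 1.44. The absence of these genes past 4-fold held only for pooled ratios: on plate A 5 of the 11 and 15 of the 27 passed 4-fold, and on plate B 2 and 14. Of all genes, 19.9% passed 4-fold toward the microglia class pooled, 46.5% on plate A and 48.4% on plate B. The counts with the letters are small, and a link between the letters and the ratios was not tested. Gla, among the 11, passed on both plates, at 4.52 and 4.26. Of the 8 genes with GAGGAAG, 3 passed 4-fold pooled (Laptm5, Gusb and Man2b1), 6 on plate A and 5 on plate B, and their pooled median was 1.55. Of the 30 genes with a window and without GAGGAAG, 9 passed pooled, 14 on plate A and 11 on plate B. The pooled median of these 30 was 1.24. A match is a description of the letters in the window and does not show that a factor binds there.

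Among the 9 membrane proteins, Laptm5 and Cd68 set the classes apart, while the structural proteins Lamp1 and Lamp2 stayed within 4-fold in the pooled ratios. Laptm5, a lysosomal transmembrane protein of blood-lineage cells, stood at 3452 (3435 to 3469) CPM in the microglia class and 4.26 (3.43 to 5.23) CPM in the endothelial class. Its lowest, median and highest cells were at 0, 3364 and 10968 CPM in the microglia class and 0, 0 and 32.5 CPM in the endothelial class. No endothelial cell reached the median of the microglia class. Reads were found in 99.6% of microglia-class and 37.8% of endothelial cells, or in 100% and 25.2% at one depth, where each cell was thinned to 71000 reads and 34 shallower microglia-class cells were left out. Cd68, the macrophage relative of the LAMP proteins, stood at 1556 (1545 to 1568) and 2.39 (1.78 to 3.14) CPM, a ratio of 652-fold (496 to 876), with cells at 0, 1441 and 7786 CPM and at 0, 0 and 277 CPM. Its reads were found in 98.9% and 16.2% of cells (98.8% and 9.91% at one depth). These endothelial levels were 0.123% and 0.153% of the microglia-class levels, inside the 0.0364% to 0.517% spanned by the 10 general macrophage markers, and the part of RNA from broken cells in them was not tested.

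Lamp1, which with Lamp2 forms most of the glycoprotein lining of the lysosomal membrane, stood at 1556 (1545 to 1568) CPM in the microglia class and 808 (796 to 819.7) CPM in the endothelial class. On plates A and B its microglia-class levels were 1743 and 1455 CPM, and on plates A to D its endothelial levels were 1462, 973, 817 and 686 CPM. The classes overlapped widely, with reads in 98.2% and 97.3% of cells (95.5% and 92.8% at one depth) and log2 ratios of 0.95 pooled, 0.25 on plate A and 0.58 on plate B. Lamp2 followed the same order at 798 and 339.9 CPM, with log2 ratios of 1.23 pooled, 0.48 on plate A and 0.86 on plate B. Its cells differed more than those of Lamp1: reads were found in 91.4% and 65.8% of cells (88.6% and 56.8% at one depth). The median cells were at 552 and 14.3 CPM, and 24.3% of endothelial cells lay above the microglia-class median. Npc1, which moves cholesterol out of the lysosome, was just past 4-fold at 95.5 and 23.0 CPM, and Ctns, the exporter of cystine, stood at 105 and 18.3 CPM. Neither was read in most cells. Npc1 had reads in 32.5% and 13.5% of cells (27.2% and 8.11% at one depth) and Ctns in 28.6% and 9.01% of cells (21.1% and 5.41% at one depth). On plate D Ctns was at 0.114 CPM and on plate B at 79.7 CPM, so its endothelial level depends on which cells are pooled. With each cell given equal weight, the log2 ratios of Npc1 and Ctns were 1.46 and 1.60, under 4-fold. Cln3, lost in juvenile Batten disease, was at 159.8 and 53.7 CPM. Scarb2, the receptor that carries glucocerebrosidase to lysosomes, was at 185 and 115 CPM. Mcoln1, a calcium-permeable channel, had the lowest pooled ratio of the 9, at 102 and 71.8 CPM, but its log2 ratio was 1.01 on plate A and 4.39 on plate B. It was read in 30.7% and 30.6% of cells (24.8% and 25.2% at one depth).

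**Figure D2:**
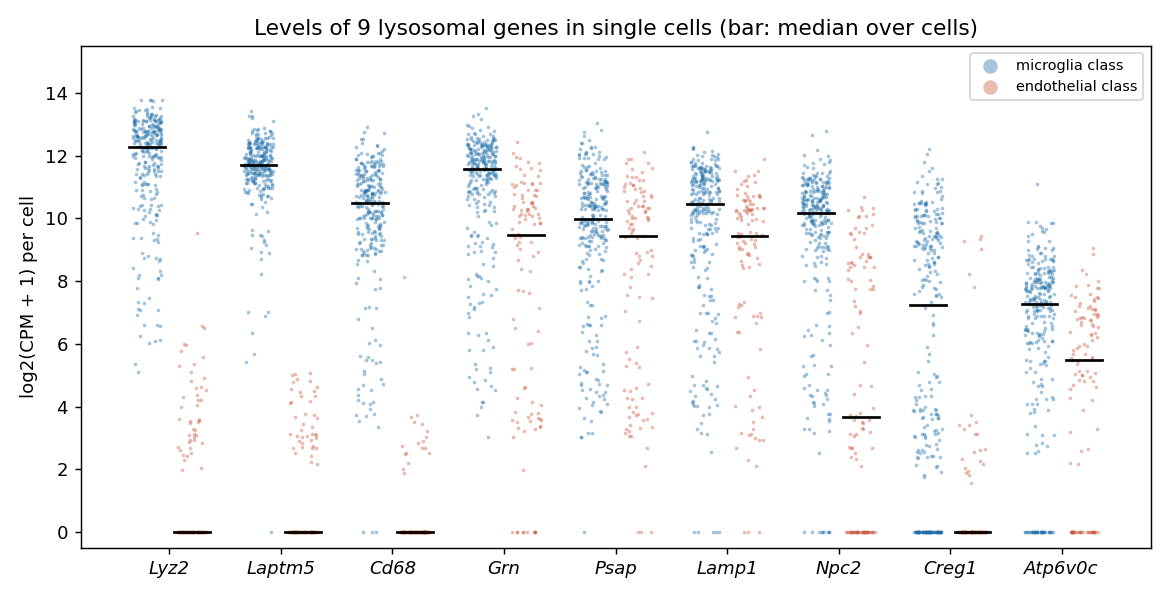
Level of 9 lysosomal genes in each cell, as log2(CPM + 1) on the y axis, for 280 microglia-class cells (blue) and 111 endothelial cells (red), with a black bar at the median over cells. The medians of Lyz2, Laptm5, Cd68 and Creg1 are 0 in the endothelial class, while Grn, Psap, Lamp1 and Atp6v0c overlap between the classes.

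Of the 9 glycosidases and lysozyme, 4 passed 4-fold toward the microglia class: Lyz2, Gusb, Man2b1 and Hexa. Lyz2, the lysozyme of macrophages that cuts bacterial cell walls, was the highest of all 43 genes per exon length in the microglia class, at 3085 CPM per kilobase of exon (RPKM). Its level was 4059 (4041 to 4078) CPM against 10.9 (9.55 to 12.4) CPM in the endothelial class, with cells at 33.3, 4976 and 14131 CPM and at 0, 0 and 742 CPM. Every one of the 280 microglia-class cells had Lyz2 reads, and 41.4% of endothelial cells did, or 29.7% at one depth. The endothelial level was 0.269% of the microglia-class level, again inside the range of the macrophage markers. Lyz1, a near-identical neighbour, had 26.0 CPM in the microglia class and 0 reads in the endothelial class, which allows up to 3 reads, and how reads shared by the pair were counted is not given in the sources used here.

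Hexa, the alpha subunit of beta-hexosaminidase, stood at 1577 (1566 to 1588) CPM in the microglia class and 298 (290.4 to 305) CPM in the endothelial class. Its cells were at 0, 1452 and 7320.1 CPM and at 0, 9.95 and 2226 CPM, and 4.50% of endothelial cells were above the median microglia-class cell. The log2 ratio was 2.40 pooled, 2.41 on plate A and 3.97 on plate B. Man2b1, the lysosomal alpha-mannosidase, stood at 1428 (1418 to 1439) and 145 (139.8 to 150.0) CPM, a ratio of 9.86-fold (9.51 to 10.2), and held at log2 3.00 and 3.97 on the plates. Gusb, beta-glucuronidase, was at 509 (503 to 515) and 48.3 (45.4 to 51.3) CPM, with plate values of 1.86 and 7.97. On plates A to D its endothelial level was 151, 0.943, 55.2 and 41.0 CPM.

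The other 5 hydrolases of this group lay closer together in the pooled ratios. On plate A Naglu, Neu1, Gla and Gaa passed 4-fold, at log2 ratios of 7.64, 5.74, 4.52 and 3.42. There the 7 endothelial cells held 0 CPM of Naglu and 3.12 CPM of Neu1. On plate B only Gla of these passed, at 4.26. Glb1, beta-galactosidase, stood at 132 and 77.9 CPM, and its log2 ratio turned from 0.75 pooled to -1.27 and -0.63 on plates A and B. Neu1, a sialidase, was at 270.2 and 191 CPM, Naglu, which degrades heparan sulfate, at 168 and 106 CPM, and Gla, alpha-galactosidase A, at 19.5 and 5.99 CPM. Gla was the lowest of the 43 genes in the microglia class and was read in 11.8% and 1.80% of cells (10.2% and 1.80% at one depth). Gaa, which releases glucose from glycogen, was level at 251 (247 to 256) and 236 (229 to 242) CPM, a ratio of 1.07-fold (1.03 to 1.10). Its endothelial level on plate A, 17.7 CPM, stood apart from 239, 341 and 145 CPM on plates B to D.

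Lipids or peptides are handled by 7 of the proteins, and 2 of these, Npc2 and Ppt1, passed 4-fold. Npc2, the soluble cholesterol carrier that hands its cargo to Npc1, stood at 1314 (1303 to 1324) CPM in the microglia class and 275 (268 to 282) CPM in the endothelial class. Its cells were at 0, 1163 and 7027 CPM and at 0, 11.7 and 1639 CPM, and its log2 ratio was 2.25 pooled, 3.28 on plate A and 2.36 on plate B. The classes overlapped only in part: 4.50% of endothelial cells lay above the microglia-class median. Ppt1, a thioesterase that removes palmitate from proteins, was at 499 (493 to 505) and 106 (101 to 110.2) CPM. Psap, precursor of the saposins that present sphingolipids to hydrolases, was the highest listed gene per exon length in the endothelial class, at 352 RPKM. Its level was 1559 (1547 to 1569.8) CPM in the microglia class and 965 (952 to 978) CPM in the endothelial class, with cells at 0, 1006 and 8381 and at 0, 689 and 4404 CPM. Over plates its endothelial level ran from 231 CPM on A to 1081 CPM on D, and the log2 ratio of 0.69 pooled was 2.73 on plate A and 1.28 on plate B.

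Asah1, acid ceramidase, stood at 910.5 (902 to 919) and 291 (283 to 298) CPM, a log2 ratio of 1.64 that was 2.71 and 1.52 on the plates. Tpp1, an aminopeptidase, was at 565 and 218 CPM, and Lipa, the acid lipase of cholesteryl esters, at 492 and 180.1 CPM. Smpd1, acid sphingomyelinase, was the one listed gene with a higher level in the endothelial class, 124 (119 to 129) CPM against 112 (109 to 115) CPM. It was read in 40.5% of endothelial and 28.2% of microglia-class cells, and in 27.9% and 19.5% at one depth. The order was the same on plate A and the opposite on plate B: its log2 ratio was -0.64 on plate A and 4.86 on plate B, where endothelial cells held 3.30 CPM.

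Grn encodes progranulin, which is cut to granulins in the lysosome, and it was read in all 280 microglia-class cells and 91.0% of endothelial cells (87.4% at one depth). It stood at 2866 (2851 to 2881) CPM in the microglia class and 1060.3 (1047 to 1074) CPM in the endothelial class, with cells at 7.22, 3045 and 11803 and at 0, 714 and 5575 CPM. Its endothelial level was even over plates A to D, at 999, 1123, 1044 and 1069 CPM, and its log2 ratio was 1.43 pooled, 1.71 on plate A and 1.23 on plate B. Creg1, a small secreted and lysosomal glycoprotein, had the largest ratio after Laptm5, Cd68 and Lyz2. It stood at 475 (469 to 481) and 27.8 (25.6 to 30.1) CPM, 17.1-fold (15.7 to 18.6), with log2 ratios of 4.05 pooled, 7.15 and 2.81. Tfeb itself was read in few cells, and its level was 50.1 (48.1 to 52.2) CPM in the microglia class and 7.30 (6.20 to 8.54) CPM in the endothelial class. It was read in 19.6% and 9.01% of cells (15.0% and 5.41% at one depth) and had 0 reads in the 17 endothelial cells of plates A and B.

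The 15 pump genes stood closer together than the enzymes and membrane proteins did. Their median log2 ratio was 1.11 over all cells, 0.86 on plate A and 1.36 on plate B, against 0.36, 1.73 and 1.87 for all genes. Pooled, 2 of 15 (13.3%) passed 4-fold, against 19.9% of all genes. On plates A and B 4 and 3 of them (26.7% and 20.0%) passed, under the 46.5% and 48.4% of all genes. The other 28 genes had medians of 1.55, 2.93 and 2.34. Of these 28, 12 (42.9%) passed pooled, and 18 and 15 (64.3% and 53.6%) on plates A and B. Summed, the pump genes took 4383 CPM of microglia-class reads and 1991 CPM of endothelial reads. All 15 pooled ratios were above 0, and 12 were above the median of all genes. With no replicate of either class, no test of this difference between the parts of the list was made.

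In the membrane sector V0, 1 of 6 genes, Atp6v0a1, passed 4-fold. The proteolipid gene Atp6v0b stood at 549.7 (543 to 556) and 183 (177 to 189) CPM and Atp6v0c, the main proteolipid of the rotating ring, at 189 (186 to 193) and 75.5 (71.8 to 79.2) CPM. Atp6v0c was read in 87.9% and 72.1% of cells (87.4% and 69.4% at one depth), with cells at 0, 155 and 2184 CPM and at 0, 43.9 and 535 CPM. The copies annotated as Atp6v0c pseudogenes, Atp6v0c-ps1 and Atp6v0c-ps2, had 0.442 and 0.905 CPM in the microglia class. The large a subunit, which anchors the pump and guides protons, has alternative forms. Atp6v0a1 was at 304 (299 to 309) and 63.2 (59.8 to 66.6) CPM, and Tcirg1, the form known from osteoclasts, at 431 (425 to 436) and 207 (201 to 213) CPM. Atp6v0a1 passed 4-fold pooled and on both plates, where its 7 and 10 endothelial cells held 1.04 and 0.943 CPM, but plates C and D held 39.1 and 111 CPM. Tcirg1 had a log2 ratio of 1.06 pooled, 7.69 on plate A and 1.62 on plate B. The remaining V0 genes, Atp6v0d1 and Atp6v0e, had ratios of 2.40-fold and 1.99-fold.

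In V1, 1 of 7 subunits passed 4-fold pooled. That was Atp6v1c1, the C subunit that links V1 to V0, at 193 (189 to 197) and 29.1 (26.9 to 31.5) CPM. Atp6v1b2 followed with 333 and 103 CPM, a log2 ratio of 1.69 that was 1.96 and 1.95 on the plates. Atp6v1a, the catalytic subunit, stood at 229 (225 to 234) and 115 (111 to 120.1) CPM, and Atp6v1f and Atp6v1d of the rotor at 164 and 82.9 CPM and at 162 and 74.6 CPM. Atp6v1d was the 1 V1 gene past 4-fold on both plates, at log2 ratios of 3.26 on A and 5.71 on B, against 1.11 pooled. Its endothelial level was 13.5, 2.36, 126 and 43.2 CPM on plates A to D. Atp6v1e1 of the peripheral stalk and Atp6v1h, a regulator of ATP hydrolysis, were nearly level, at log2 ratios of 0.35 and 0.32, at or below the median of all genes. For Atp6v1h the ratio was -0.71 on plate A and -0.11 on plate B. Of the accessory proteins, Atp6ap1 was at 602 (595 to 609) and 471 (462 to 480.5) CPM, with a log2 ratio of 0.35 pooled and -0.61 on plate A. Atp6ap2, the prorenin receptor, was at 453 and 129 CPM, the log2 ratio of 1.81 being the closest under 4-fold of the 43.

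Per exon length, the order of levels differed between the classes. In the microglia class Lyz2 led with 3085 RPKM, ahead of Cd68 at 1238, Laptm5 at 911, Grn at 825, Hexa at 790.0 and Lamp1 at 582. In the endothelial class the order was Psap at 352, Grn at 305, Lamp1 at 302, Atp6ap1 at 156 and Hexa at 149. Lyz2, Cd68 and Laptm5 ranked 35, 40 and 43 of 43 there. Neighbours such as Grn and Lamp1 in endothelial cells, or Lamp1 and Psap at 568 in the microglia class, lie closer to each other than their cells spread. Laptm5 in the endothelial class was the lowest value, 1.12.

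**Figure D3:**
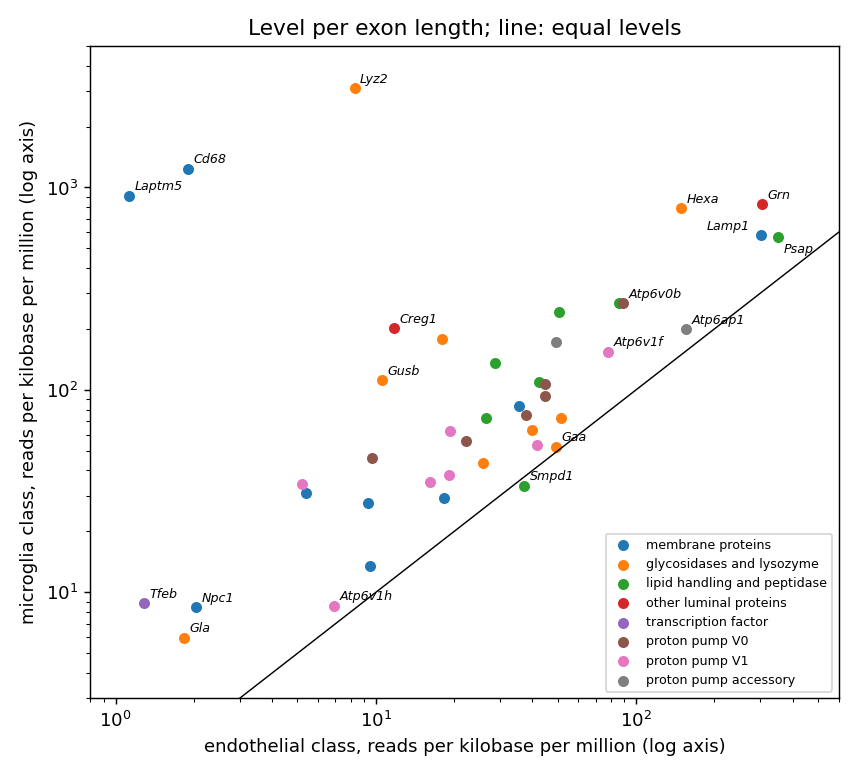
Level of the 43 genes per exon length, in RPKM on log axes, endothelial class on the x axis and microglia class on the y axis, coloured by role. Most genes follow the line of equal levels from above, while Lyz2, Cd68 and Laptm5 lie far to the upper left and Smpd1 lies just under the line.

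A score per cell, the mean of log2(CPM + 1) over the 43 genes, summarised them. It was 5.26 ± 1.00 (SD over 280 cells, from 2.79 to 8.30) in the microglia class and 2.71 ± 0.67 (SD over 111 cells, from 1.41 to 4.80) in the endothelial class, a difference of 2.54. The score of all genes at 1 CPM or more differed by -0.03, and that of all genes at 50 CPM or more by -0.11. No endothelial cell was above the median microglia-class cell, no microglia-class cell was below the median endothelial cell, and 65.4% of microglia-class cells were above the highest endothelial cell. The difference was 2.85 on plate A and 2.47 on plate B. Without Lyz2, Laptm5 and Cd68 it was 2.00, and 42.1% of microglia-class cells were above the highest endothelial cell. After thinning to 71000 reads, with the same 34 shallow cells set aside, it was 2.66.

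By role, the score differed most for membrane proteins, 3.19, and glycosidases and lysozyme, 3.11, leaving aside the pair of Grn and Creg1 at 3.97. It differed by 2.39 for lipid handling and peptidase, 2.55 for V0, 1.70 for accessory proteins and 1.23 for V1. For the whole pump the means were 4.56 ± 1.34 and 2.74 ± 1.05 (SD over cells), and 6 endothelial cells were above the microglia-class median. Of the 43 genes, a microglia-class cell had reads from 28.1 on average (18 to 40) and an endothelial cell from 18.2 (8 to 29). At one depth these means were 25.8 and 14.8.

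Endothelial cells differed little by plate. Their mean score was 2.72 ± 0.51 on plate A (SD, n = 7 cells), 2.51 ± 0.61 on B (n = 10), 2.85 ± 0.71 on C (n = 50) and 2.60 ± 0.65 on D (n = 44), all less than 1 SD apart. Microglia-class cells averaged 5.56 ± 0.94 on plate A and 4.98 ± 0.98 on plate B. Within a plate the score went with depth: its correlation with log reads per cell was 0.49 and 0.54 in the microglia class (plates A and B, 133 and 147 cells) and 0.69 and 0.51 in endothelial cells (plates C and D, 50 and 44 cells). For the score of all genes the same correlations were 0.76, 0.80, 0.86 and 0.78.

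**Figure D4:**
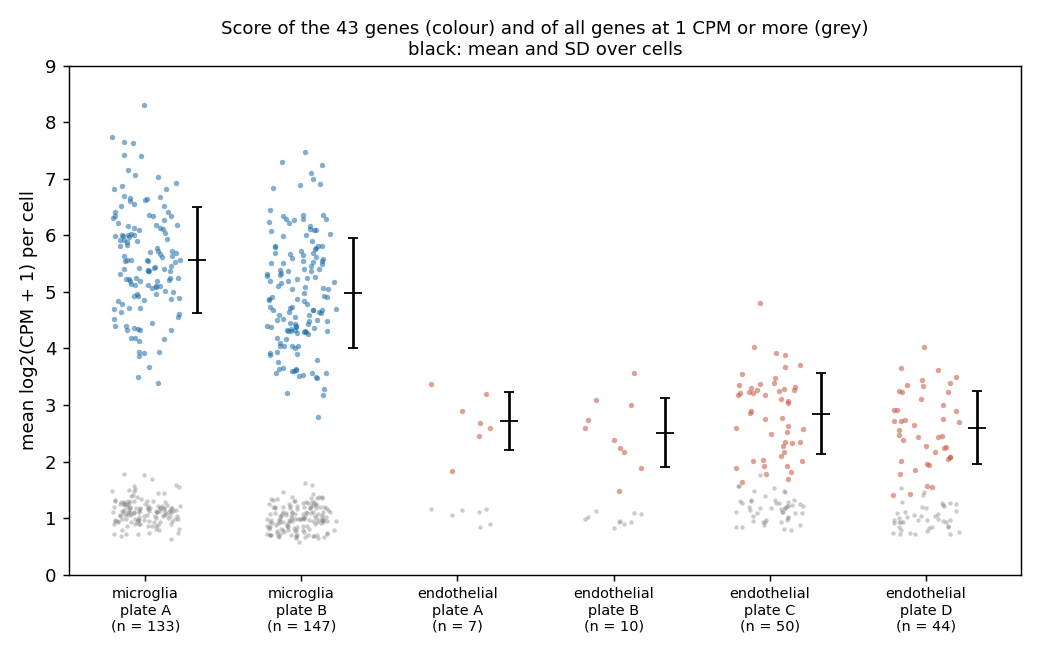
Score of the 43 genes in each cell (mean log2(CPM + 1), y axis) by class and plate, blue for the microglia class and red for the endothelial class, with the mean and SD over cells in black; grey points are the same score for all genes that reach 1 CPM. The lysosomal score separates the classes on plates A and B alike, at means of 5.56 and 4.98 against 2.72 and 2.51, while the grey points are level.

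The microglia class was then split into 4 clusters from 2000 variable genes that excluded the 43, to see how the lysosomal genes vary inside it. Cluster 3 (51 cells) is microglia-like: every one of the 10 microglia markers had reads in 50% or more of its cells. In each other cluster 7 of the 10 did. The sum of the 10 was 25486 CPM in cluster 3, against 2459, 5939 and 403 CPM in clusters 1, 2 and 4. In the endothelial class it was 4248 CPM, above clusters 1 and 4. Slc2a5, Sall1, Adgrg1 and Sparc were among the 10 leading genes of cluster 3, which Ecscr, a gene named for endothelial cells, headed. The other clusters are kept by number. Cluster 1 (104 cells) had Ccl24 and Mpzl1 among its leading genes and had the highest sum over 11 border-associated macrophage markers, 16745 CPM against 7871, 587 and 1032 CPM in clusters 2 to 4. It also had the highest sum over 5 oligodendrocyte markers, 646 CPM against 163, 134 and 116 CPM. Cluster 2 (92 cells) was led by Lyz1, Axl and Gpr65. Cluster 4 (33 cells) was led by Dpp4, Olfm1 and Tnip3, with the highest sums over 8 monocyte or dendritic cell markers, 3571 CPM against at most 484 CPM elsewhere, and the lowest over general macrophage markers, 5725 CPM against 24420 CPM or more.

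The lysosomal score was even over clusters 1, 2 and 3, at 5.36 ± 1.03, 5.37 ± 1.00 and 5.36 ± 0.88, and stood at 4.47 ± 0.76 in cluster 4 (SD over cells). Cluster 4 had the deepest cells, with a median of 206432 reads against 124570, 137594 and 178891, and the highest score over all genes at 50 CPM or more, 2.44 against 2.00, 2.11 and 2.16. At one depth the lysosomal scores were 5.40, 5.36, 5.24 and 4.26. On plate A they were 5.53, 5.71, 5.66 and 4.87, and on plate B 5.14, 5.04, 5.16 and 4.29. Of the 43 genes, 29 (67.4%) were lowest in cluster 4, against 33.1% of the 7502 genes of the class at least as high as the lowest member, and 22 (51.2%) were highest in cluster 1, against 26.1%. Only 13 of the 22 were highest in cluster 1 on both plates, and some led by little, such as Lamp1 at 1889 against 1823 CPM in cluster 2. Between clusters, 14 of the 43 (32.6%) spanned 4-fold or more on CPM + 1 against 48.4% of the 7502. The median spans were 2.97-fold and 3.83-fold. The clusters were made without the 43, while the 7502 were not cleared of the variable genes that made them. A smaller span of the 43 was thus in part set in advance, and the comparison cannot show that they vary less.

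The mean score of cluster 4 lay further under cluster 1 for the 28 other genes, 4.62 against 5.78, than for the pump, 4.18 against 4.58. Grn stood at 3429, 3156, 3229 and 746 CPM in clusters 1 to 4, Hexa at 2036, 1630.0, 1634 and 511 CPM and Tpp1 at 746, 564, 659 and 94.3 CPM. Naglu was at 144, 139, 361 and 19.7 CPM, Glb1 at 192, 169, 78.2 and 11.8 CPM and Smpd1 at 104, 124, 192 and 1.43 CPM. Naglu, Glb1 and Smpd1 were in cluster 4 each at least 4-fold under the endothelial class, where they stood at 106, 77.9 and 124 CPM. For Naglu and Glb1 this rests on the 23 cells of plate B, at 2.46 and 1.31 CPM, since the 10 cells of plate A held 84.4 and 51.1 CPM, while Smpd1 was low on both, at 1.23 and 1.48 CPM. Endothelial cells of plate B held only 3.30 CPM of Smpd1, so within that plate cluster 4 was less than 4-fold lower. Cd68 was at 2457, 1317, 1307 and 597 CPM and Lamp1 at 1889, 1823, 1461 and 522 CPM, also lowest in cluster 4. Against all endothelial cells, 15 of the 43 genes stood at least 4-fold higher in cluster 1, 12 in cluster 2 and 14 in cluster 3, beside 19.1%, 18.5% and 17.6% of all genes. In cluster 4 the count was 6 higher, beside 18.8% of all genes, and 3 lower, beside 23.8%, with a median log2 ratio of 0.78.

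The order over clusters differed between members. Of those named next, Laptm5, Gaa, Atp6v1a, Atp6v1c1 and Atp6v0a1 were also lowest in cluster 4, and the others were not. Laptm5 was even, at 3300.2, 3311, 4092 and 3189 CPM, and Npc2 spanned 1.20-fold, the narrowest of the 43. Psap was lowest in cluster 1, at 705, 2019, 1729 and 2101 CPM, and Tfeb was highest in cluster 4, at 59.0, 41.0, 21.4 and 87.6 CPM. Lyz2 was lowest in the microglia-like cluster 3, at 5687, 5428, 1114 and 2086 CPM, and was read in every cell of all 4 clusters. Gaa was highest in cluster 1, at 489, 207, 94.6 and 77.0 CPM. Pump subunits also differed by cluster: Atp6v1a and Atp6v0c were highest in cluster 1, at 389 and 270.5 CPM, while Tcirg1 at 779 CPM and Atp6v1c1 at 354 CPM were highest in cluster 3. The form Atp6v0a1 was at 414, 259, 362 and 100.1 CPM.

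**Figure D5:**
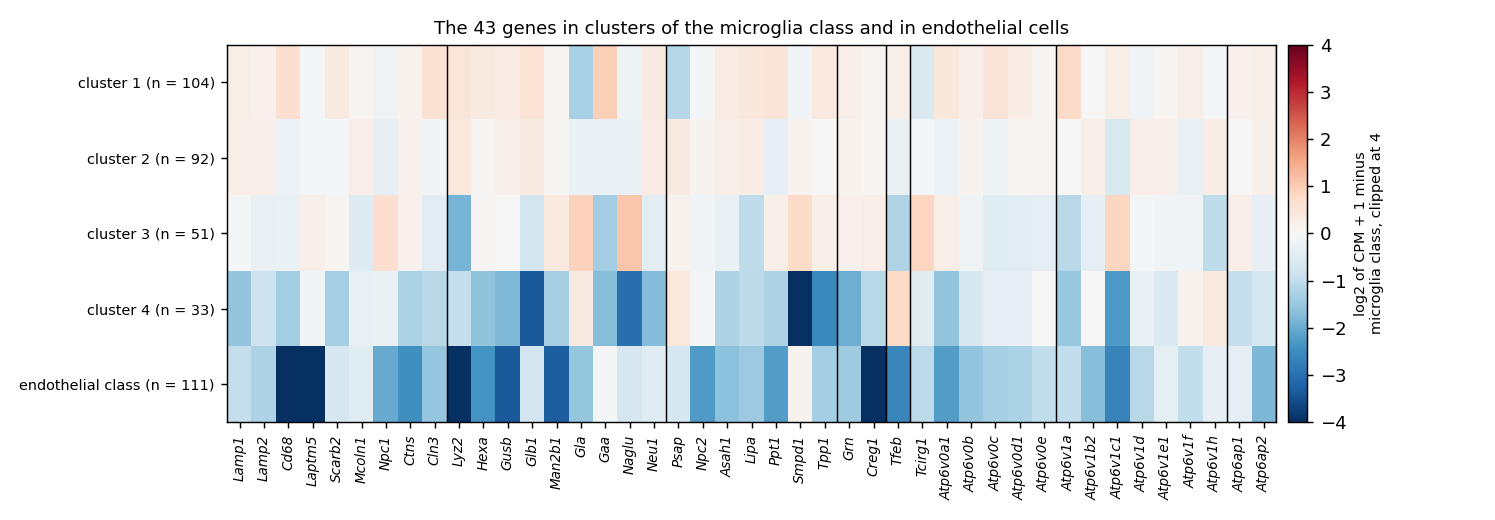
Difference of log2(CPM + 1) from the whole microglia class, in colour clipped at 4 either way, for the 43 genes (columns, by role) in the 4 clusters of the microglia class and in the endothelial class (rows). In cluster 4, which holds the lowest cluster value of 29 of the 43 genes, Smpd1, Glb1 and Naglu are dark blue, while Laptm5 and Npc2 are near white in all 4 clusters.

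Within the microglia class the members went together weakly from cell to cell. Each gene's correlation with the mean of the other members, taken within a plate and given here as a description, reached 0.37 and 0.38 for Lamp1 (plates A and B, 133 and 147 cells), 0.36 and 0.32 for Tpp1 and 0.32 and 0.34 for Gusb. Lyz2 showed none, at -0.01 and 0.04, and Laptm5 little, at 0.15 and 0.12. The points share library, plate and each cell's depth, which moves with the score. Outside the list, the 10 genes whose levels correlated most with the score on both plates included Lgmn, Pmp22, Ctsd, Tmem86a, Pld3, Trem2, Adgre1, Pla2g15 and Abhd12. The lower of the 2 plate values ran from 0.38 for Lgmn to 0.30 for Abhd12, where 1116 genes read in at least 50% of the cells had medians of 0.12 and 0.11 and a 95th percentile of 0.23.

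Other genes of the pathway were taken from lists of 76 symbols, of which 68 passed 1 CPM; 27 passed 4-fold toward the microglia class and 1 toward the endothelial class, with a median log2 ratio of 1.23. These are 39.7% of the 68 against 19.9% of all genes, and the share was 58.8% within each of plates A and B, against 46.5% and 48.4% of all genes. Of 24 further enzymes and activators 15 (62.5%) passed 4-fold toward the microglia class, and 22 pooled ratios were above 0. On plates A and B 79.2% and 66.7% of the 24 passed. The widest ratios were those of Arsb, a sulfatase, at 239 and 0.515 CPM and Lgmn, an asparaginyl endopeptidase, at 3246 and 31.8 CPM. Of 17 further membrane proteins 6 (35.3%) passed 4-fold toward the microglia class, and 13 pooled ratios were above 0. On plates A and B 47.1% and 52.9% of the 17 passed, near the shares of all genes. Slc11a1, a metal transporter of phagosomes, led at 535 and 0.562 CPM, before Cd63, a tetraspanin, at 412 and 1.97 CPM. In the enzyme sorting list of 10, only Gnptab, which makes the mannose phosphate tag, passed 4-fold toward the microglia class, at 36.9 and 3.60 CPM. It did not pass on both of plates A and B. Igf2r, the large receptor for that tag, was the one listed pathway gene past 4-fold toward the endothelial class, at 59.1 CPM against 4.97 CPM, with log2 ratios of -3.33 pooled, -6.10 on plate A and -3.53 on plate B. Its endothelial level was 67.6, 99.0, 104 and 0.228 CPM on plates A to D, so plate D lay below the microglia class, and it was read in 19 endothelial and 4 microglia-class cells. In all, 15 of the 68 pooled ratios were below 0. Of 12 MiT/TFE and nutrient-sensing genes 3 (25.0%) passed 4-fold toward the microglia class, and 8 pooled ratios were above 0. On each of plates A and B 50.0% of the 12 passed, near the shares of all genes. The 3 included Mitf, at 58.1 CPM against 0 reads in 111 endothelial cells, and Tfec, at 31.4 and 0.0468 CPM. Of 5 further pump subunits at 1 CPM or more, Atp6v1g2 at 7.09 CPM and Atp6v0d2 at 4.40 CPM passed in the microglia class at low levels, while Atp6v0a4, Atp6v1b1, Atp6v1e2 and Atp6v1g3 had 0 reads in all 391 cells and Atp6v1c2 had 2 reads, both in endothelial cells.

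Overlapping genes limit some of these values, since the use of strand in counting is not given. In GENCODE M21 (GRCm38), exons of another gene on the opposite strand cover 12.8% of Hexa, 11.8% of Atp6v0b, 9.31% of Lamp1 and 7.65% of Cln3, and on the same strand Tmppe covers 5.49% of Glb1. How reads of these stretches were counted was not tested.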

How the data were processed

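The authors deposited 1 table of whole-number read counts per gene and cell, with a table that gives each cell's class. The submitters' processing notes name the build GRCm39, featureCounts, Subread 1.4.6-p5 and SAMtools 1.16.1. For aligner, annotation, strand, duplicates and multiply mapped reads the choice is not given in the sources used here. Each of these can move counts of overlapping or copied genes.

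All 391 count columns were used, none was identical to another, and 0 were left out. No cell was removed and no doublet caller was run. Of the 56941 genes, 31131 had no read. Cells were grouped by the deposited class and plates were read from the cell names. Reads were summed by class and divided by the class total (CPM), and log2 ratios used a pseudocount of 1 CPM. Genes at 1 CPM or more in either class were compared. Because each class is 1 sample, a fixed size of 4-fold took the place of a test. Intervals are exact Poisson (levels) and exact conditional binomial (ratios) at 95%, and a count of 0 reads allows up to 3. Shares of cells were also taken after thinning each cell to 71000 reads. Levels per kilobase used merged exons of GENCODE M21 (GRCm38), matched by symbol for 43 of 43 genes. The microglia class was clustered on 2000 variable genes without the 43 (20 components, 15 neighbours, Leiden at resolution 0.5). Promoter windows came from RefSeq (GRCm38.p6), and no coordinate was moved between builds.

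The lists, their members and the tests were chosen with earlier results of these data known. Genes described in full were, by role, the 3 highest per exon length in either class and the most extreme ratios in each direction. Of other pathway genes the 2 most extreme by list and direction past 4-fold were named, and outside the lists the 10 most like the score; genes beyond these rules were named after their values were seen. A few genes that these rules or the marker lists take are not reported here. Alternatives changed scaling, pseudocount, filters, size, plates, clusters, depth and the cells included, and the share among genes at least as high as the lowest member was added after seeing the data. The computation used scanpy 1.11.5 with leidenalg 0.10.2, and scipy 1.17.1, pandas 2.3.3, numpy 2.4.6 and matplotlib 3.10.9 under Python 3.11.15, and was tested on simulated data.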

Additional observations from a re-analysis of the deposited data

How the results depend on the processing

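All values rest on 1 sample a class, so no error between animals can be given, and depth limits genes read in few cells such as Gla, Tfeb, Ctns and Npc1. No paired analysis was possible because the classes hold no numbered replicates and no result comes from a test. The count of genes past 4-fold toward the microglia class (14) was 22 on plate A alone, 28 at a size of 2-fold and 6 with cluster 4 alone, where 3 genes stood 4-fold lower; it was 11 of 40 without Lyz2, Laptm5 and Cd68, and 12 to 18 under the other alternatives. The median log2 ratio (1.43) was 1.40 with each cell given equal weight, 1.30 with median-of-ratios size factors, which moved the median of all genes from 0.36 to 0.23, and 1.33 with a pseudocount of 10 CPM. It was 2.25 on plate A alone, 1.56 on plate B alone, 1.35 without plate A, 1.35 without plate D, and 1.36 without 28 microglia-class and 11 endothelial cells high in markers of the other class. It was 1.75, 1.34 and 0.78 with cluster 1, 3 or 4 alone and 1.34 without Lyz2, Laptm5 and Cd68. The score difference (2.54) was 2.00 without those 3 genes, 1.75 with a pseudocount of 10 CPM, 2.66 after thinning, 2.85 and 2.47 on plates A and B alone, and 2.27, 2.83, 2.66 and 2.47 without plates A, B, C and D. The range of mean scores over clusters (0.90) was 0.93 at resolution 0.8, 1.14 after thinning, 0.84 and 0.87 on plates A and B, and 0.93 without the 3 genes. The cause of these shifts was not tested. All 14 genes kept their sign in the 16 alternatives that refitted each ratio, as did 27 of the 43. Signs turned for 11 genes with cluster 4 alone, for 4 on plate A alone (Scarb2, Glb1, Atp6v1h and Atp6ap1) and for 4 on plate B alone (Cln3, Glb1, Smpd1 and Atp6v1h). Leaving out plate A or C turned Smpd1, leaving out plate B or D turned Gaa, and leaving out plate C turned Atp6v1h. With a pseudocount of 0.1 CPM the shares of all genes past 4-fold were 29.2% toward the microglia class and 14.8% toward the endothelial class, and with 10 CPM they were 6.68% and 5.54%.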
